A study of Mus musculus with 9 samples.

Results

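The 46 genes described here act in mitosis: they are the cyclins and kinases that start it, the spindle checkpoint, the chromosomal passenger complex, kinetochore proteins, spindle motors, cytokinesis factors, condensin and topoisomerase subunits, and the proliferation markers Mki67 and Cdca3. The members were given as a fixed list of gene symbols and were taken as the probe sets annotated to each symbol alone. That step uses no measured value, but the list itself was chosen with earlier results of these data known. Counts set beside all genes below are therefore descriptions of a chosen list. All 46 were found among 18193 genes with a probe set of 1 symbol, on 103 probe sets. Of these genes 45, among 12925 genes in all, were bright enough to be tested, and Kif15, a spindle motor, was not. Where a gene had several probe sets, the brightest stood for it unless another is named.

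Natural killer (NK) cells sorted from mice were profiled on 9 Affymetrix 3' arrays, in 3 groups of 3 arrays labelled as biological replicates. The groups were NK cells from NKDxIL15tg bone marrow, NK cells from NKDxIL15tg spleen, and NK cells from IL15tg spleen, and the study's design text calls the NKDxIL15tg cells immature and the IL15tg cells mature. All 3 groups carry the IL15tg transgene, named for the cytokine IL-15 on which NK cells depend, so none of them stands for normal IL-15 levels. NKD is a transgenic line known for a deficit of mature NK cells. Because NKD and immaturity were present together in every NKDxIL15tg sample, the 2 cannot be told apart here, and no IL15tg marrow was analysed. The promoters of the transgenes, the markers of the sort, the ages and the number of mice pooled for a sample are not given in the sources used here.

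Dividing cells enter mitosis when cyclin A and cyclin B proteins activate the kinase CDK1. The spindle checkpoint, built from the Bub, Mad and Ttk proteins, then holds back the anaphase promoting complex and its activator Cdc20 until chromosomes are attached to microtubules at their kinetochores, after which the chromatids part and the cell divides. Most of these genes are transcribed late in the cell cycle, in the phases G2 and M, so their combined RNA level in a cell population is widely used as a readout of how many cells are cycling. In NK cell development, immature cells in the bone marrow are known to divide more than the mature cells that leave it.

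Mitosis and spindle RNAs were more abundant in NK cells of NKDxIL15tg mice than in NK cells of IL15tg mice. The geometric mean intensity over the 46 genes was 371.8, 457.9 and 409.4 in replicates 1, 2 and 3 of NKDxIL15tg marrow, 195.9, 310.6 and 324.8 in NKDxIL15tg spleen, and 141.4, 119.6 and 162.3 in IL15tg spleen. The 3 groups did not overlap. The ranking of mean log2 intensities, marrow above NKDxIL15tg spleen above IL15tg spleen, held for 41 of the 45 tested members (91.1%), against 29.6% of all 12925 tested genes. In 23 members (51.1%, against 1.83% of all genes) every one of the 9 arrays kept that order. In sorted populations measured in bulk, fewer cells of a type and less RNA per cell cannot be told apart.

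**Figure D1:**
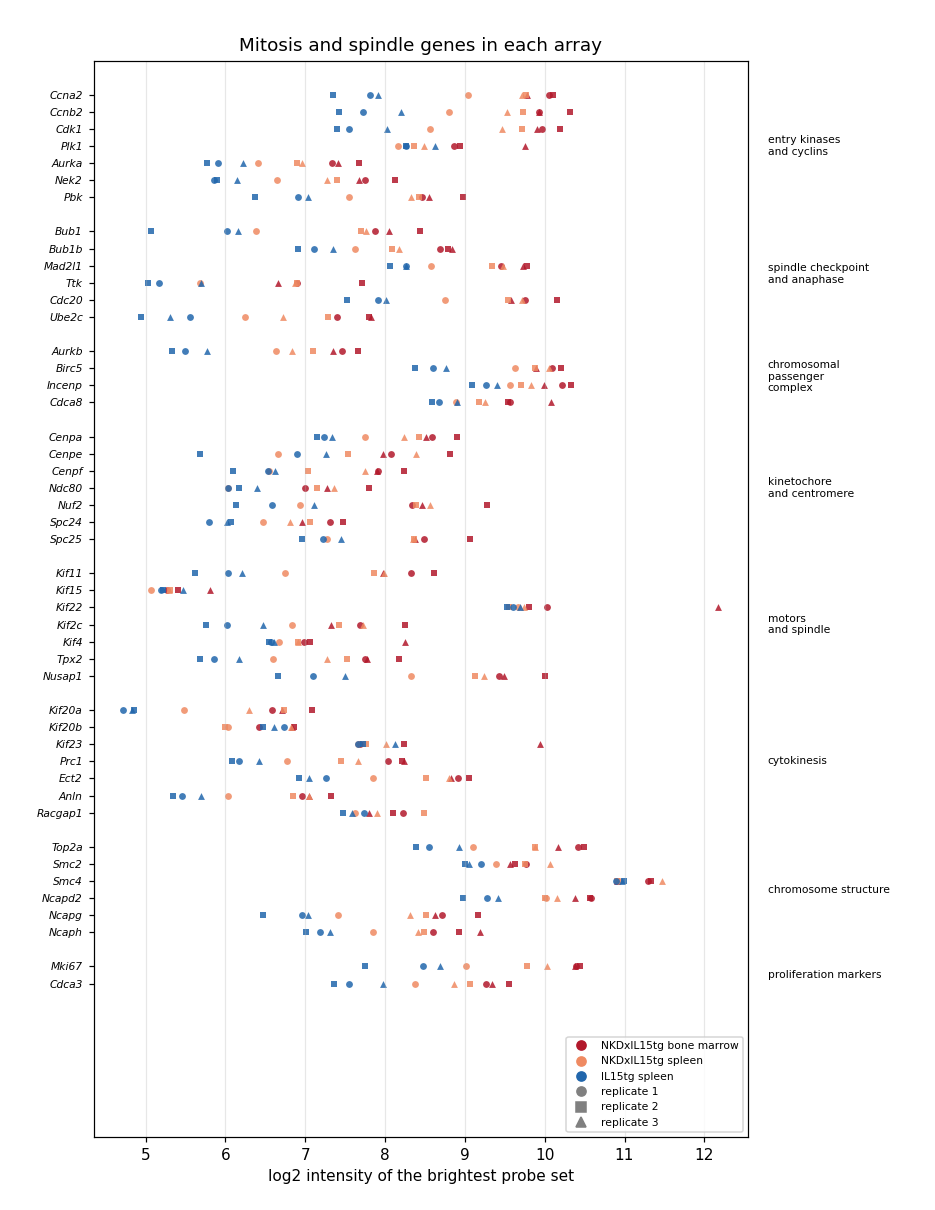
Log2 intensity of the brightest probe set of each of the 46 genes (rows, grouped by role) in the 9 arrays; colour gives the group and shape the replicate. In most rows the NKDxIL15tg marrow arrays lie farthest right and the IL15tg spleen arrays farthest left, while Kif22 and Kif23 have a single bright marrow array, replicate 3.

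A limma fit on log2 intensity over all tested probe sets, with Benjamini-Hochberg adjustment and a threshold of 0.05, called 30 of the 45 members higher in NKDxIL15tg spleen than in IL15tg spleen and none lower. Over all tested genes, 7.65% were called higher and 4.87% lower in this comparison. The median log2 change was 1.09 over the members and 0.02 over all genes. No member had an unadjusted p under 0.05 in the lower direction, and 35 had one in the higher direction. Every NKDxIL15tg array exceeded every IL15tg array in 32 members, a separation found in 21.3% of all genes. The count of calls depended on single arrays: it was 16 without NKDxIL15tg spleen replicate 2, 15 without IL15tg spleen replicate 1 and 14 without IL15tg spleen replicate 2, and 35 without NKDxIL15tg spleen replicate 1. For 5 members (Ttk, Ube2c, Aurkb, Kif20a and Anln) the mean in IL15tg spleen lay under the intensity filter of 47.7, so they entered the test through the NKDxIL15tg arrays and their calls are tied to the filter. Among the other 40 members 26 were called higher in spleen, and with no filter the spleen calls of Ube2c, Aurkb, Kif20a and Anln also passed. With no filter, however, 25 members were called in spleen in all, and the calls of Bub1, Mad2l1, Kif2c, Smc2 and Ncapg were lost. In each of the 18 alternative settings, 11 of the 30 calls held (Ccna2, Ccnb2, Cdk1, Nek2, Cdc20, Aurkb, Birc5, Nusap1, Ect2, Ncapd2 and Ncaph).

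In NKDxIL15tg marrow against IL15tg spleen, which differ in organ as well as genotype, 39 of 45 members were called higher and none lower, beside 11.5% and 8.7% of all genes. None of the members had a lower value at an unadjusted p under 0.05 in this limma fit. The median log2 change was 1.67 over the members and 0.12 over all genes, and the arrays of the groups did not overlap in 42 members, against 25.4% of all genes. Marrow replicate 3 stood apart from the other arrays, as described below. Without it 40 members were called, against 12.1% of all genes, with a median of 1.78. Among the 40 members with an IL15tg mean above the filter, 34 were called with all arrays. This comparison shares arrays with the spleen comparison, so its counts are no independent evidence.

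**Figure D2:**
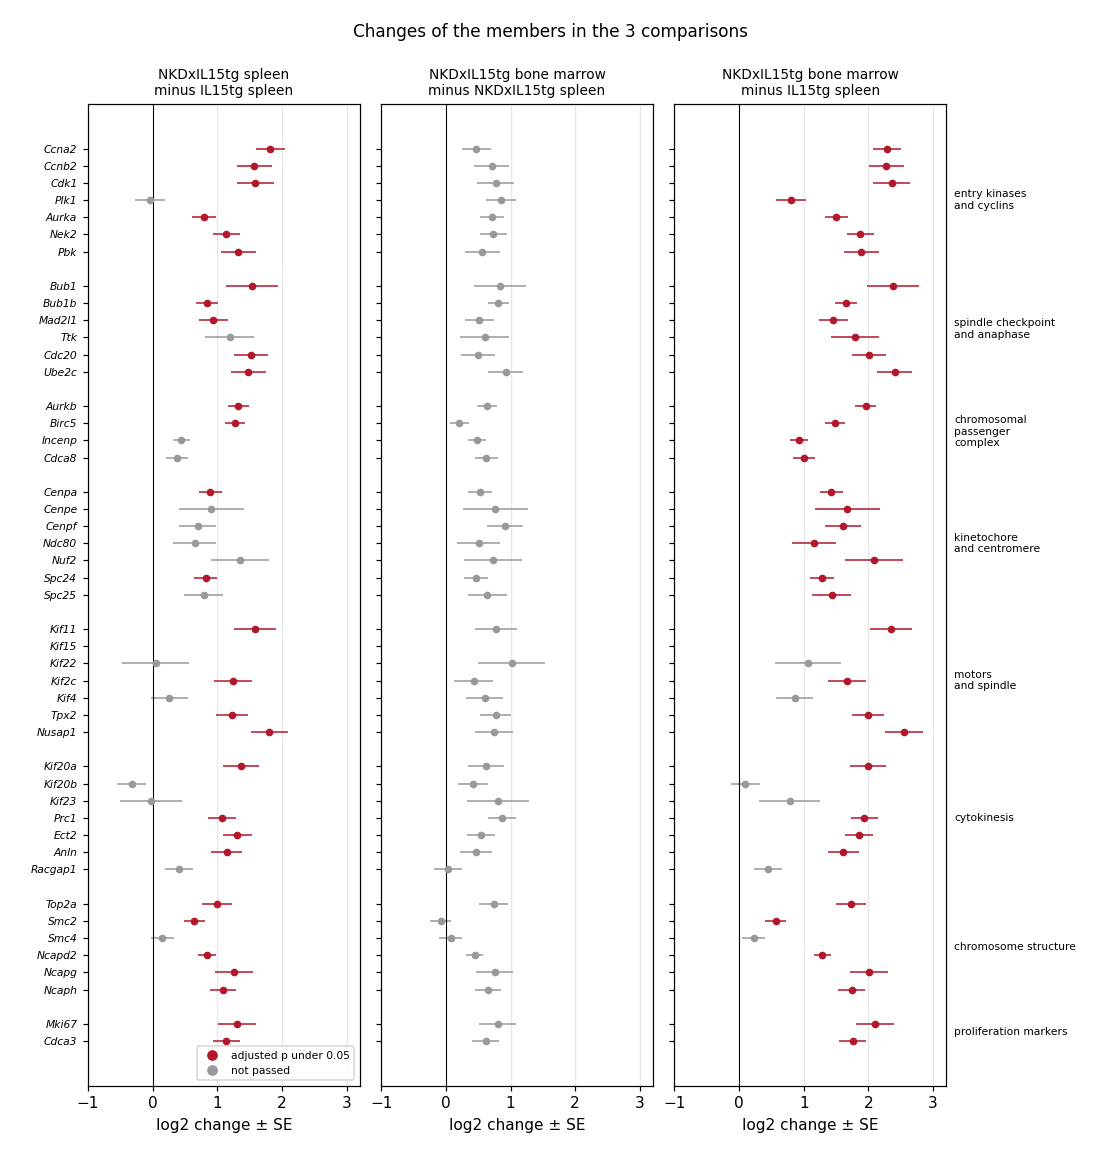
Log2 change ± standard error (SE) of each member in the 3 comparisons, each with 3 arrays a group; red points have an adjusted p under 0.05 and grey points do not. The left and right panels hold 30 and 39 red points, all above 0, and the middle panel, marrow against spleen of the same genotype, holds none although 44 of its 45 points lie above 0.

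Among the cyclins and kinases of mitotic entry, 6 of 7 members were called higher in NKDxIL15tg spleen, with a median log2 change of 1.33 over the role. Ccna2, cyclin A2, which acts in S phase and at mitotic entry, gave intensities of 1063, 1102 and 875 in replicates 1, 2 and 3 of NKDxIL15tg marrow, 527, 872 and 839 in NKDxIL15tg spleen and 225, 162 and 239.9 in IL15tg spleen. The 3 groups did not overlap, and the change in NKDxIL15tg spleen against IL15tg spleen was 1.82 ± 0.22, adjusted p = 0.00115 (log2 ± SE, n = 3 arrays a group, limma, as for all changes below), the largest of the members, equal to 3.53-fold. Cdk1, the kinase that drives entry, measured 1001, 1171 and 954 in NKDxIL15tg marrow, 378, 842 and 705 in NKDxIL15tg spleen and 187, 169 and 261 in IL15tg spleen, so that even the lowest NKDxIL15tg spleen array exceeded the highest IL15tg array. Its change in spleen was 1.59 ± 0.28, adjusted p = 0.00747. Ccnb2, a B-type cyclin that partners Cdk1, measured 978, 1271 and 974 in NKDxIL15tg marrow, 444, 847 and 739 in NKDxIL15tg spleen and 211, 172 and 293 in IL15tg spleen, again without overlap, with a change in spleen of 1.57 ± 0.27, adjusted p = 0.00596. In marrow against IL15tg spleen the log2 changes of these 3 genes were 2.29, 2.36 and 2.28.

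Pbk, a mitotic kinase, Nek2, a centrosomal kinase, and Aurka, the Aurora kinase of the spindle poles, also rose in NKDxIL15tg spleen, by log2 changes of 1.33, 1.14 and 0.79. The calls of Pbk and Aurka were each lost when NKDxIL15tg spleen replicate 2 or IL15tg spleen replicate 2 was left out, and that of Aurka also without NKDxIL15tg spleen replicate 3 or IL15tg spleen replicate 1, with adjusted p up to 0.0529 and 0.154 over the alternatives. Plk1, the polo-like kinase of mitotic entry and exit, was the exception in this role. It measured 467, 489 and 861 in NKDxIL15tg marrow, 286, 328 and 360.0 in NKDxIL15tg spleen and 306, 306 and 395 in IL15tg spleen, and its spleen groups overlapped (log2 change -0.05 ± 0.23, adjusted p = 0.95). Its call in marrow against IL15tg spleen (0.80 ± 0.23, adjusted p = 0.0382) was lost in 9 of the 18 alternatives, including the removal of any one of the 6 spleen arrays, with adjusted p up to 0.127. The 2 tested Nek2 probe sets disagreed in spleen. The brighter measured 214, 278 and 204 in NKDxIL15tg marrow, 101, 169 and 154 in NKDxIL15tg spleen and 57.9, 59.7 and 70.7 in IL15tg spleen, and the dimmer 81.2, 132 and 78.2 in NKDxIL15tg marrow, 55.7, 92.3 and 82.4 in NKDxIL15tg spleen and 43.9, 40.7 and 48.4 in IL15tg spleen, where the adjusted p was 0.0686 for the dimmer and 0.00813 for the brighter.

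Of the spindle checkpoint and anaphase genes, 5 of 6 were called higher in NKDxIL15tg spleen (median log2 change 1.34) and all 6 in marrow against IL15tg spleen (1.90). Bub1, a checkpoint kinase at the kinetochore, measured 234, 348 and 264 in NKDxIL15tg marrow, 83.2, 209 and 216 in NKDxIL15tg spleen and 64.9, 33.5 and 71.2 in IL15tg spleen. Replicate 1 of NKDxIL15tg spleen, at 83.2, lay near the highest IL15tg array, at 71.2, and the change in spleen was 1.53 ± 0.40, adjusted p = 0.0363. That call was lost without any one of 5 spleen arrays (NKDxIL15tg replicates 2 and 3, and each IL15tg replicate), with adjusted p up to 0.131. Cdc20, the activator of the anaphase promoting complex, measured 861, 1142 and 763 in NKDxIL15tg marrow, 430.2, 743 and 839 in NKDxIL15tg spleen and 241, 185 and 257 in IL15tg spleen. Its spleen groups were well apart (1.52 ± 0.26, adjusted p = 0.00631), while marrow and NKDxIL15tg spleen overlapped. Ube2c, the ubiquitin-conjugating enzyme of the same complex, measured 169, 222 and 228 in NKDxIL15tg marrow, 76.0, 156 and 105 in NKDxIL15tg spleen and 47.2, 30.8 and 39.5 in IL15tg spleen. Its IL15tg mean lay under the filter, and the size of its spleen change depended on the floor: 1.48 ± 0.26, adjusted p = 0.00735 as processed, and 0.75 with an adjusted p of 0.115 when intensities under 64 were set to 64.

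Bub1b, which encodes the checkpoint protein BubR1, had 3 tested probe sets. The brightest by mean measured 414, 443 and 458 in NKDxIL15tg marrow, 197, 272 and 289.6 in NKDxIL15tg spleen and 138, 119.9 and 163 in IL15tg spleen (change in spleen 0.84 ± 0.17, adjusted p = 0.0125). A second measured 422, 519 and 396 in NKDxIL15tg marrow, 192, 301 and 285 in NKDxIL15tg spleen and 122, 82.3 and 129 in IL15tg spleen (change 1.22 ± 0.22, adjusted p = 0.00844), and the dimmest, with 78.0, 109 and 109.8 in NKDxIL15tg spleen and 67.0, 64.2 and 73.8 in IL15tg spleen, kept the direction without passing (adjusted p = 0.111). Mad2l1, which encodes the checkpoint protein Mad2, rose by 0.94 in NKDxIL15tg spleen, but its call was lost without any one of the same 5 spleen arrays as that of Bub1 (adjusted p up to 0.0915). The Bub1b call was lost without NKDxIL15tg spleen replicate 2 or IL15tg spleen replicate 1 or 2 (up to 0.0563). Ttk, the kinase also called Mps1, had a log2 change of 1.19 ± 0.38, adjusted p = 0.0697, and its 3 NKDxIL15tg spleen arrays overlapped with the IL15tg arrays by replicate 1 alone, at 51.5 against 51.6. A passing value appeared for Ttk without NKDxIL15tg spleen replicate 1, without marrow replicate 3 and in 3 other settings, down to an adjusted p of 0.0202, and with a floor of 64 its call in marrow against IL15tg spleen was lost (0.0709).

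Both Aurkb, the kinase of the chromosomal passenger complex, and Birc5, its subunit survivin, rose in NKDxIL15tg spleen and in each alternative setting. Aurkb measured 176, 202 and 163 in NKDxIL15tg marrow, 99.1, 137 and 114 in NKDxIL15tg spleen and 45.1, 40.4 and 54.4 in IL15tg spleen, a full separation of the 3 groups (1.32 ± 0.16, adjusted p = 0.00114 in spleen). Birc5 measured 1088, 1183 and 945 in NKDxIL15tg marrow, 788, 937 and 1065 in NKDxIL15tg spleen and 388, 333 and 433 in IL15tg spleen, and its change in spleen was 1.27 ± 0.15, adjusted p = 0.00109, with the smallest adjusted p of the members. Marrow and NKDxIL15tg spleen overlapped for Birc5.

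The other subunits of the passenger complex had probe sets that differed. For Incenp, the scaffold subunit, the brightest probe set measured 1188, 1285 and 1021 in NKDxIL15tg marrow, 758, 830.3 and 910.0 in NKDxIL15tg spleen and 618, 544 and 677 in IL15tg spleen, without overlap but short of the threshold in spleen (0.44 ± 0.13, adjusted p = 0.059); it passed without marrow replicate 3 and in 2 other settings, down to an adjusted p of 0.0172. The dimmest tested Incenp probe set fell, with 78.1, 76.2 and 64.8 in NKDxIL15tg marrow, 58.6, 55.1 and 56.8 in NKDxIL15tg spleen and 70.3, 76.1 and 77.3 in IL15tg spleen (log2 change -0.39 ± 0.11, adjusted p = 0.0436). For Cdca8, borealin, 1 probe set measured 859.8, 1003 and 953 in NKDxIL15tg marrow, 461, 716 and 698 in NKDxIL15tg spleen and 246, 186 and 304 in IL15tg spleen and was called (1.35 ± 0.22, adjusted p = 0.00436). The probe set that stood for Cdca8 measured 756, 746 and 1078 in NKDxIL15tg marrow, 472, 577 and 609 in NKDxIL15tg spleen and 409.8, 384 and 478 in IL15tg spleen, with a small overlap of the spleen groups (log2 change 0.38 ± 0.17, adjusted p = 0.195). In marrow against IL15tg spleen all 4 subunits passed, at log2 changes of 1.96 for Aurkb, 1.48 for Birc5, 1.01 for Cdca8 and 0.93 for Incenp.

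Of the kinetochore and centromere genes, 2 of 7 were called higher in NKDxIL15tg spleen, with a median log2 change of 0.82, and 7 of 7 in marrow against IL15tg spleen, with a median of 1.43. Whether this role differs from the others was not tested. Cenpa, the histone variant that marks centromeres, measured 384, 476 and 365 in NKDxIL15tg marrow, 214, 343 and 301 in NKDxIL15tg spleen and 150.2, 142 and 162 in IL15tg spleen, with no overlap (0.89 ± 0.18, adjusted p = 0.013 in spleen). A dimmer Cenpa probe set went the other way and fell, with 86.8, 72.4 and 73.0 in NKDxIL15tg marrow, 46.4, 42.3 and 53.0 in NKDxIL15tg spleen and 99.1, 77.9 and 84.4 in IL15tg spleen (-0.88 ± 0.14, adjusted p = 0.00397). With probe sets averaged, the Cenpa change in spleen was therefore -0.051, and its call was also lost without IL15tg spleen replicate 1 or 2. Spc24, a subunit of the Ndc80 complex that binds microtubules, measured 158, 178 and 125 in NKDxIL15tg marrow, 89.1, 134 and 112 in NKDxIL15tg spleen and 55.6, 67.1 and 65.1 in IL15tg spleen. Its spleen groups did not overlap (0.82 ± 0.18, adjusted p = 0.0193), and its call was lost without any one of 5 spleen arrays, all but NKDxIL15tg spleen replicate 1 (adjusted p up to 0.0809).

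The remaining subunits of the Ndc80 complex had wide spreads in NKDxIL15tg spleen. Nuf2 measured 324, 623 and 354 in NKDxIL15tg marrow, 122, 335 and 379 in NKDxIL15tg spleen and 96.2, 70.3 and 138 in IL15tg spleen, so replicate 1 of NKDxIL15tg spleen fell among the IL15tg arrays and the change missed the threshold (1.35 ± 0.45, adjusted p = 0.0802). Ndc80 and Spc25 had log2 changes of 0.65 and 0.79 in spleen, with adjusted p of 0.251 and 0.13. Nuf2, Ndc80, Spc25 and Cenpf, a kinetochore protein of late cell cycle phases (log2 change 0.69), each passed without NKDxIL15tg spleen replicate 1, with lowest adjusted p over the alternatives of 0.0144, 0.0289, 0.0193 and 0.0461. Cenpe, the kinetochore motor CENP-E, had a spleen change of 0.91 ± 0.50, adjusted p = 0.285. In marrow against IL15tg spleen, Cenpe (1.67 ± 0.50, adjusted p = 0.0432) and Ndc80 (1.16 ± 0.33, adjusted p = 0.0381) lay close to the threshold. With replicate number as a block the Cenpe call in marrow was lost, and calls of both were lost without IL15tg spleen replicate 1 or 2 or marrow replicate 2 (adjusted p up to 0.136 for Cenpe and 0.126 for Ndc80), that of Cenpe also without marrow replicate 1 or NKDxIL15tg spleen replicate 2, and that of Ndc80 also without IL15tg spleen replicate 3.

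Motors and spindle proteins included 4 called genes of 6 tested, with a median log2 change of 1.23 in spleen and 1.83 in marrow against IL15tg spleen. Nusap1, a microtubule-bundling protein of the spindle, measured 690.5, 1024 and 720.1 in NKDxIL15tg marrow, 319.6, 557 and 605 in NKDxIL15tg spleen and 137, 101 and 181 in IL15tg spleen. The groups were fully separated, the change in spleen was 1.81 ± 0.29, adjusted p = 0.00443, and the marrow change against IL15tg spleen, 2.55, was the largest of all members. Kif11, the motor Eg5 that pushes spindle poles apart, measured 320.1, 393 and 251 in NKDxIL15tg marrow, 107, 232 and 254 in NKDxIL15tg spleen and 65.5, 49.0 and 73.8 in IL15tg spleen (1.58 ± 0.32, adjusted p = 0.0137 in spleen). Here marrow and NKDxIL15tg spleen overlapped while IL15tg spleen lay apart. Kif2c, the microtubule-depolymerising kinesin MCAK, measured 206, 305 and 161 in NKDxIL15tg marrow, 114, 172 and 212 in NKDxIL15tg spleen and 65.1, 54.0 and 89.0 in IL15tg spleen (1.24 ± 0.30, adjusted p = 0.026). The calls of Kif11 and Kif2c were lost without NKDxIL15tg spleen replicate 2 or IL15tg spleen replicate 2, and that of Kif2c also without NKDxIL15tg spleen replicate 3 or IL15tg spleen replicate 1, with adjusted p up to 0.0602 and 0.1.

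Dimmer probe sets of these motors did not all pass. The third Kif11 probe set, with 90.6, 161 and 168 in NKDxIL15tg spleen and 64, 60.1 and 93.9 in IL15tg spleen, overlapped by 1 array (adjusted p = 0.086). The second tested Kif2c probe set, at 77.1, 62.3 and 76.7 in NKDxIL15tg spleen and 67.2, 58.8 and 69.7 in IL15tg spleen, changed by 0.14, with an adjusted p of 0.588. Tpx2, the spindle assembly factor that activates Aurora A, was called on its brightest probe set, which measured 215, 289 and 219 in NKDxIL15tg marrow, 96.4, 185 and 155 in NKDxIL15tg spleen and 58.2, 51.5 and 72.2 in IL15tg spleen (1.22 ± 0.24, adjusted p = 0.0121). Its other tested probe sets had intensities of 51.2, 52.2 and 57.3 and 44.0, 37.1 and 39.5 in NKDxIL15tg spleen against 42.2, 41.8 and 39.1 and 47.0, 42.4 and 43.8 in IL15tg spleen, and neither passed (0.0785 and 0.789). The Tpx2 call was lost without IL15tg spleen replicate 1 or 2 and with probe sets averaged (adjusted p up to 0.0808).

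Kif22 and Kif4, chromosome-arm kinesins, were the tested motors with no call on their brightest probe set in any comparison. The brightest Kif22 probe set measured 1041, 897 and 4619.8 in NKDxIL15tg marrow, 813, 753 and 852 in NKDxIL15tg spleen and 778, 739 and 826 in IL15tg spleen. All arrays but marrow replicate 3 lay in a narrow band, and that array was more than 4 times brighter than any other. A dimmer Kif22 probe set without that bright array measured 81.9, 126 and 106 in NKDxIL15tg marrow, 48.2, 77.8 and 68.1 in NKDxIL15tg spleen and 32.7, 33.0 and 36.1 in IL15tg spleen and was called in spleen (0.90 ± 0.20, adjusted p = 0.02). Its IL15tg values all lay under the intensity filter, so it entered the test through the NKDxIL15tg arrays. Calls of this probe set are therefore tied to the filter. In marrow against IL15tg spleen 2 of the 3 tested Kif22 probe sets were called, this one (1.60 ± 0.20, adjusted p = 0.000949) and one that was brightest in marrow replicate 3 (1.57 ± 0.42, adjusted p = 0.0298). With probe sets averaged, Kif22 passed in marrow against IL15tg spleen (adjusted p = 0.0145). Kif4 measured 127, 133 and 304 in NKDxIL15tg marrow, 102, 119.9 and 120.2 in NKDxIL15tg spleen and 95.3, 93.2 and 97.3 in IL15tg spleen, in the order of the groups in every array, with a spleen change of 0.26 ± 0.29, adjusted p = 0.656. Its marrow change against IL15tg spleen (0.86 ± 0.29, adjusted p = 0.0652) passed without marrow replicate 3, which was its brightest array, without marrow replicate 1 and in 3 other settings, down to an adjusted p of 0.0202. Kif15, below the intensity filter, measured 38.5, 42.4 and 55.9 in NKDxIL15tg marrow, 33.6, 39.8 and 39.2 in NKDxIL15tg spleen and 36.7, 37.3 and 44.5 in IL15tg spleen.

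**Figure D3:**
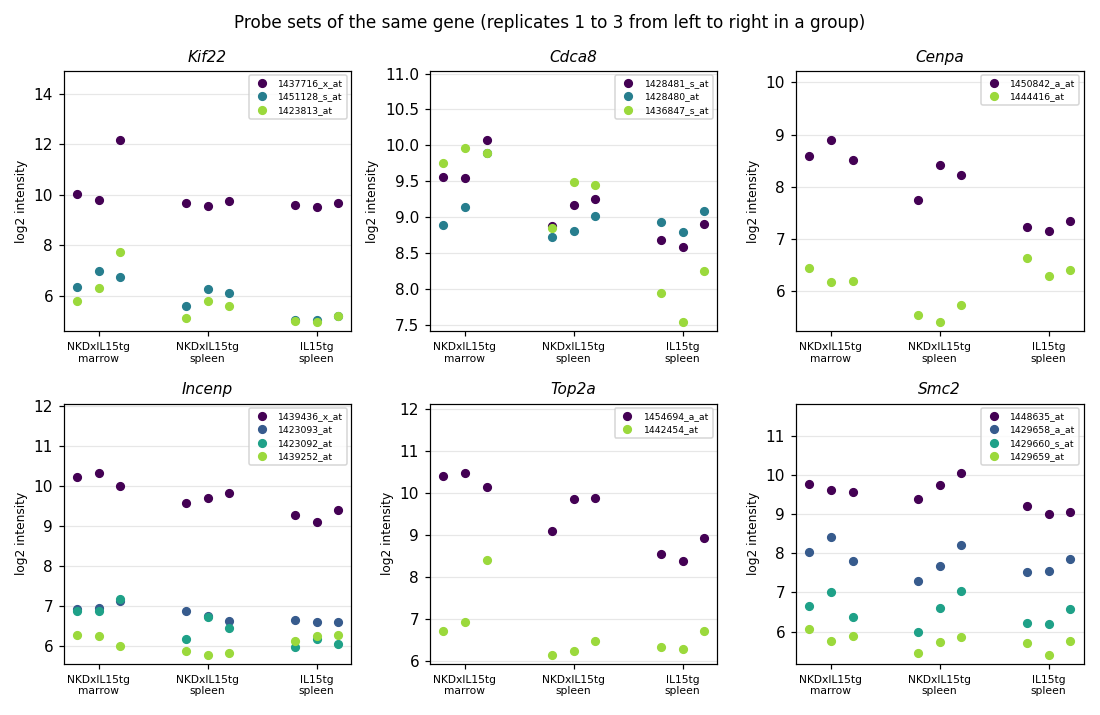
Log2 intensity of the tested probe sets of 6 genes whose probe sets differ, in the 9 arrays, with replicates 1 to 3 from left to right in each group. Marrow replicate 3 is high on 2 of the Kif22 probe sets and on 1 of Top2a, the dimmest Cenpa and Incenp probe sets are lower in NKDxIL15tg spleen than in IL15tg spleen, and vertical scales differ between panels.

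In the cytokinesis role, 4 of 7 members were called higher in NKDxIL15tg spleen, and the same number in marrow against IL15tg spleen. The log2 change was above 0 in 5 and 7 of the 7. Kif20a, a kinesin of the spindle midzone, measured 95.7, 136 and 105 in NKDxIL15tg marrow, 44.7, 107 and 78.3 in NKDxIL15tg spleen and 26.4, 29.0 and 28.4 in IL15tg spleen. All IL15tg arrays were dim and alike, with a mean under the filter. Its spleen change was 1.37 ± 0.28, adjusted p = 0.0134 as processed and 0.34, with an adjusted p of 0.371, when intensities under 64 were set to 64, and the call was also lost without IL15tg spleen replicate 1. Ect2, the exchange factor that activates RhoA at the cleavage plane, measured 482, 532 and 452 in NKDxIL15tg marrow, 229.8, 365 and 447 in NKDxIL15tg spleen and 153, 121 and 132 in IL15tg spleen, fully ordered by group (1.31 ± 0.22, adjusted p = 0.00579). Anln, anillin, which scaffolds the contractile ring, measured 124, 160.3 and 133 in NKDxIL15tg marrow, 65.4, 115 and 133 in NKDxIL15tg spleen and 44.1, 40.6 and 51.6 in IL15tg spleen (1.14 ± 0.25, adjusted p = 0.0165), with marrow and NKDxIL15tg spleen overlapping. Prc1, which bundles midzone microtubules, rose by 1.07. Calls of Anln and Prc1 were lost without NKDxIL15tg spleen replicate 2 or IL15tg spleen replicate 1 or 2, and that of Anln also with probe sets averaged and with a floor of 64. Over all alternatives the adjusted p reached 0.17 for Anln, at that floor, and 0.056 for Prc1, without IL15tg spleen replicate 2.

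The 3 cytokinesis genes without a call in any comparison were Kif20b, Kif23 and Racgap1. Racgap1, which with the kinesin Kif23 forms the centralspindlin complex, measured 299, 275 and 223 in NKDxIL15tg marrow, 197, 361 and 239.8 in NKDxIL15tg spleen and 213, 178 and 193 in IL15tg spleen, and its spleen groups overlapped (0.41 ± 0.21, adjusted p = 0.264). Kif23 was at 206, 301 and 983 in NKDxIL15tg marrow, 202, 218 and 259 in NKDxIL15tg spleen and 203, 212 and 278 in IL15tg spleen, again with marrow replicate 3 as the one bright array. Its partner Racgap1 was at its lowest marrow value in that array. Kif20b, a kinesin of late cytokinesis, measured 85.6, 116 and 114 in NKDxIL15tg marrow, 65.5, 63.9 and 113 in NKDxIL15tg spleen and 107, 88.5 and 98.1 in IL15tg spleen. Its groups overlapped in all comparisons, and it had the lowest spleen change of the members (-0.32 ± 0.23, adjusted p = 0.417).

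Chromosome structure genes were called higher in 5 of 6 cases in NKDxIL15tg spleen. Ncapg, a subunit of condensin I, which compacts mitotic chromosomes, measured 421, 572 and 395 in NKDxIL15tg marrow, 171, 364 and 319 in NKDxIL15tg spleen and 124, 88.7 and 132 in IL15tg spleen (1.26 ± 0.29, adjusted p = 0.0219 in spleen). Ncaph, the kleisin subunit of condensin I, measured 388, 487 and 582 in NKDxIL15tg marrow, 231, 360.5 and 339.7 in NKDxIL15tg spleen and 145, 129 and 158 in IL15tg spleen (1.09 ± 0.20, adjusted p = 0.00939), and both of its probe sets rose. For these subunits the 9 arrays were fully ordered by group. Top2a, the topoisomerase that untangles sister chromatids, measured 1362, 1438 and 1145 in NKDxIL15tg marrow, 547, 939 and 939.6 in NKDxIL15tg spleen and 374, 336 and 487 in IL15tg spleen (0.99 ± 0.23, adjusted p = 0.0223), also fully ordered. A dimmer Top2a probe set measured 104, 123 and 343 in NKDxIL15tg marrow, 70.8, 75.6 and 88.9 in NKDxIL15tg spleen and 80.7, 78.5 and 105 in IL15tg spleen, bright in marrow replicate 3 alone and not called in spleen (adjusted p = 0.872). Without NKDxIL15tg spleen replicate 2 or 3 or IL15tg spleen replicate 1 or 2 the Top2a and Ncapg calls were lost (adjusted p up to 0.635 for Top2a, with probe sets averaged, and 0.087 for Ncapg).

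Ncapd2, another condensin I subunit, rose on its brightest probe set, which measured 1532, 1514 and 1326 in NKDxIL15tg marrow, 1039, 1027 and 1139 in NKDxIL15tg spleen and 618, 503 and 682 in IL15tg spleen (0.84 ± 0.13, adjusted p = 0.00417), while a probe set with 63.2, 64.6 and 72.6 in NKDxIL15tg spleen and 59.0, 41.2 and 61.5 in IL15tg spleen did not pass (0.24). Smc2 and Smc4, the paired ATPase subunits of condensin, which both condensin complexes share, had the smallest spleen changes of this role. Smc4 measured 2500.2, 2579.7 and 1923 in NKDxIL15tg marrow, 1953, 1917 and 2836 in NKDxIL15tg spleen and 1896, 2032 and 2009.9 in IL15tg spleen, all groups overlapping (0.15 ± 0.18, adjusted p = 0.667 in spleen). Smc2 measured 869.5, 793 and 759.6 in NKDxIL15tg marrow, 669, 864 and 1068 in NKDxIL15tg spleen and 591, 514 and 530.2 in IL15tg spleen, and was the one member whose log2 change in marrow against NKDxIL15tg spleen was below 0. Its call in spleen (0.65 ± 0.17, adjusted p = 0.0329) was lost in 10 of the 18 alternatives, among them the fit with replicate number as a block and the removal of any spleen array but NKDxIL15tg spleen replicate 1, and its call in marrow against IL15tg spleen (0.57 ± 0.17, adjusted p = 0.0396) in 12, the block and the removal of marrow replicate 1 or 2, NKDxIL15tg spleen replicate 2 or any IL15tg array among them (adjusted p up to 0.5 and 0.124). None of its 3 dimmer tested probe sets passed in spleen, with NKDxIL15tg spleen intensities of 157, 204 and 299 against 183, 188 and 231 in IL15tg spleen for the brightest of them.

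The proliferation marker Mki67, which encodes the Ki-67 antigen, measured 1348, 1386 and 1336 in NKDxIL15tg marrow, 518, 878 and 1043 in NKDxIL15tg spleen and 355, 216 and 412 in IL15tg spleen (1.30 ± 0.29, adjusted p = 0.0189 in spleen, 2.47-fold). Its marrow arrays were close together while those of NKDxIL15tg spleen spread over a wider range. Cdca3, a trigger of mitotic entry, measured 615, 751 and 647 in NKDxIL15tg marrow, 331, 534 and 466 in NKDxIL15tg spleen and 188, 164 and 251 in IL15tg spleen (1.14 ± 0.21, adjusted p = 0.00846), with all groups apart. The dimmer Cdca3 probe sets, at 75.2, 78.8 and 75.4 and 75.3, 63.4 and 59.7 in NKDxIL15tg spleen against 64.3, 70.5 and 73.1 and 67.7, 58.6 and 73.7 in IL15tg spleen, did not pass (adjusted p 0.637 and 0.981), and with probe sets averaged the Cdca3 call was lost (0.0561). The Mki67 call was lost without NKDxIL15tg spleen replicate 2 or 3 or IL15tg spleen replicate 1 or 2 (adjusted p up to 0.0724).

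Across all 83 tested probe sets of the members, 40 were called higher and 2 lower in NKDxIL15tg spleen than in IL15tg spleen, beside 6.75% and 7.04% of all 27022 tested probe sets. In marrow against IL15tg spleen 59 were called higher and none lower, beside 9.79% and 11.5% of all. Of 25 genes with several tested probe sets, 13 had probe sets that disagreed on a higher call in spleen. Of the Cdc20 probe sets, the brightest passed as given above. Another, at 212, 265 and 806 in NKDxIL15tg marrow, 145, 188 and 198 in NKDxIL15tg spleen and 121, 132 and 144 in IL15tg spleen, was high in marrow replicate 3 and did not pass in spleen (adjusted p = 0.614). Levels of different probe sets cannot be set against each other.

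Marrow against spleen within the NKDxIL15tg genotype asks whether organ alone goes with these genes, and here no member was called in either direction by limma, beside 0.0232% of all genes called higher and 0.0464% called lower. The smallest adjusted p among the members was 0.287, for Bub1b. At an unadjusted p under 0.05, 25 of the 45 members were higher in marrow and none lower, while 802 of 12925 genes in all were higher and 602 lower. The members' median log2 change was 0.64, against 0.03 over all genes, and 44 of 45 changes were above 0, Smc2 at -0.08 being the exception. In 28 members every marrow array exceeded every NKDxIL15tg spleen array, a separation found in 10.8% of all genes. The largest changes were 1.02 ± 0.51, adjusted p = 0.48 for Kif22, which rests on marrow replicate 3, and 0.92 ± 0.26, adjusted p = 0.373 for Ube2c. Without marrow replicate 3 again no member was called, with 0.0232% of all genes called higher, and the median stayed at 0.64 with 27 members under an unadjusted p of 0.05. Without NKDxIL15tg spleen replicate 1 the median was 0.42.

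Spread between replicates was wide for these genes in NKDxIL15tg spleen. The median standard deviation over the members was 0.24 in NKDxIL15tg marrow, 0.46 in NKDxIL15tg spleen and 0.22 in IL15tg spleen on the log2 scale, beside 0.20, 0.15 and 0.12 over all tested genes. Replicate 1 of NKDxIL15tg spleen was the lowest of its 3 arrays in 41 of 45 members (91.1%), against 28.6% of all genes, and lay a median of -0.76 log2 units from the mean of the other arrays. Among the marrow arrays replicate 2 was highest in 33 members (73.3%, against 25.2% of all genes). Among the IL15tg spleen arrays replicate 3 was highest in 36 members and replicate 2 lowest in 39. The members thus moved together from array to array inside each group as well as between groups.

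**Figure D4:**
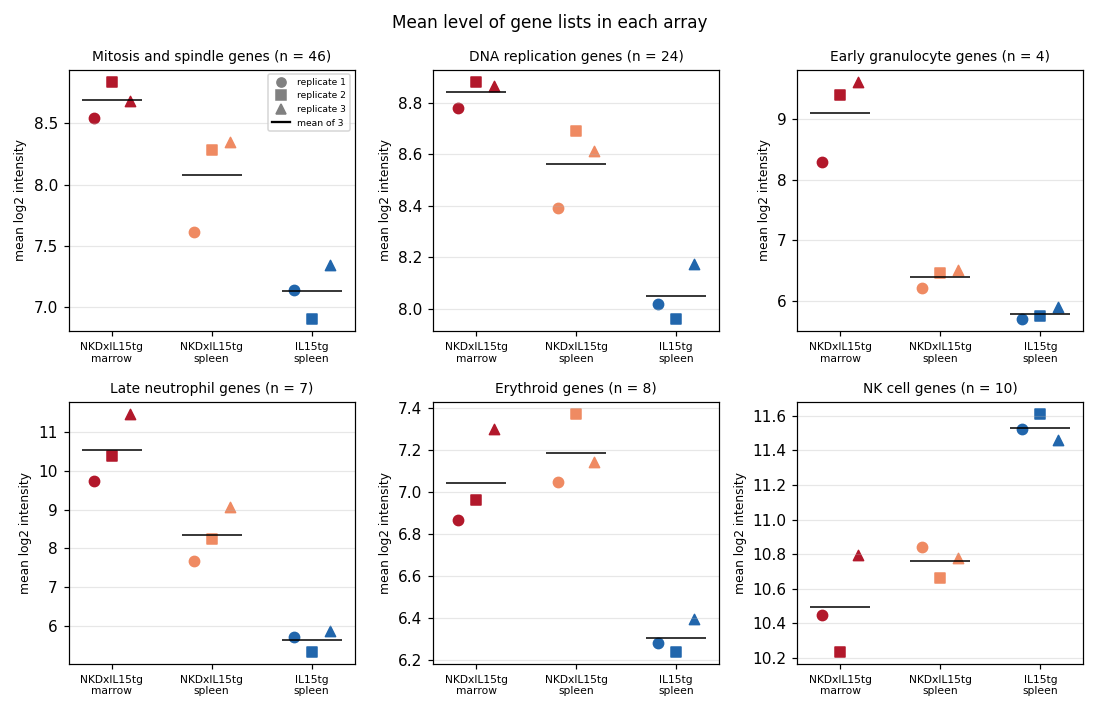
Mean log2 intensity of 6 gene lists in each array, by group, with replicate given by shape and the mean of 3 arrays as a line; vertical scales differ between panels. NKDxIL15tg spleen replicate 1 is the lowest array of its group for the mitosis, DNA replication, early granulocyte, late neutrophil and erythroid lists, and NK cell genes are highest in IL15tg spleen.

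The arrays were of similar brightness, with median intensities of 56.6 to 59.1 in 8 arrays and 64.9 in marrow replicate 3. That array also had the lowest mean rank correlation with its own group, 0.877 against 0.916 to 0.976, and a log2 actin 3' to 5' ratio of 0.93 against 1.49 to 2.73. It was over 2-fold brighter than every other array on 7 of the 83 member probe sets (8.43%), close to the 7.7% of all 27022 tested probe sets. Those 7 were probe sets of Cdc20, Cenpf, Kif22 (2 of them), Kif4, Kif23 and Top2a. Among the IL15tg spleen arrays the actin ratio was 2.73 in replicate 3, the array highest in most members, and 1.81 and 1.80 in replicates 1 and 2. The Gapdh 3' to 5' ratio ordered the arrays differently. It was 2.33 in marrow replicate 3, inside the range of 1.62 to 3.21 of the other arrays, and 1.99, 2.62 and 3.21 in replicates 1, 2 and 3 of IL15tg spleen. The part of RNA quality in these results was not tested.

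NK cell genes were present in all arrays. Their summed intensity over 10 genes was 23527 to 26136 in NKDxIL15tg marrow, 28657 to 31897 in NKDxIL15tg spleen and 39517 to 41075 in IL15tg spleen, and Ncr1, the NK receptor NKp46, Nkg7, Gzma and Prf1 were bright in every array. In NKDxIL15tg spleen against IL15tg spleen 3 of the 10 genes were called lower (Klrd1, Klrk1 and Tbx21) and 0 higher, beside 4.87% and 7.65% of all genes. In marrow against IL15tg spleen 4 were called lower and 0 higher, beside 8.7% and 11.5% of all genes. The median log2 change over the 10 genes was -0.36 in spleen and -0.71 in marrow against IL15tg spleen. The lowest changes were -3.09 and -3.10, and 2 of the 10 changes were above 0 in each comparison.

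Markers of other marrow cells also differed between the groups, not all in the order of the members, and their part in the result was not tested. The 4 early granulocyte genes summed to 1438 to 3521 in NKDxIL15tg marrow, 337 to 398 in NKDxIL15tg spleen and 236 to 273 in IL15tg spleen. None of the 4 was called in NKDxIL15tg spleen against IL15tg spleen. In marrow against NKDxIL15tg spleen 3 were called higher (Mpo, Prtn3 and Ctsg). They were the only 3 of all 12925 tested genes called higher in that comparison. All 4 were called higher in marrow against IL15tg spleen, beside 11.5% of all genes. Mpo, myeloperoxidase of early granulocytes, measured 613, 1178 and 1588 in NKDxIL15tg marrow, 159, 142 and 182 in NKDxIL15tg spleen and 103, 94.4 and 112 in IL15tg spleen. It was far higher in marrow, where the order of its arrays was not that of the members' mean. Late neutrophil genes (7) summed to 9908 to 24712 in NKDxIL15tg marrow, 2496 to 6949 in NKDxIL15tg spleen and 332 to 604 in IL15tg spleen. Of these genes, 6 of 7 were called higher in NKDxIL15tg spleen and 7 in marrow against IL15tg spleen. Within NKDxIL15tg spleen that sum was 2496, 3631 and 6949, lowest in the replicate that was lowest for the members, and within IL15tg spleen it was 460.3, 332 and 604, so in both spleen groups the arrays ranked as they did for the members' mean, which was not so in marrow (9908, 14915 and 24712).

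Erythroid genes, of a dividing marrow lineage, had 3 of 6 tested genes called higher in NKDxIL15tg spleen (Alas2, Car2 and Epor). In marrow against IL15tg spleen 4 were called higher. Their sums were 5310.0 to 7287 in NKDxIL15tg marrow, 7430.3 to 7949 in NKDxIL15tg spleen and 1768 to 1908 in IL15tg spleen, most of it from Car2. Alas2, the erythroid haem synthesis enzyme, measured 64.8, 79.4 and 82.0 in NKDxIL15tg marrow, 123, 229.9 and 163 in NKDxIL15tg spleen and 40.7, 44.9 and 41.2 in IL15tg spleen, so it was highest in NKDxIL15tg spleen, unlike the members. Hba-a1 and Rhag lay under the intensity filter. Of 7 B lineage precursor genes 4 lay under the filter, including Rag1, Dntt and Vpreb1, and of 3 tested none was called in spleen and 1, Vpreb3, in marrow against IL15tg spleen. The 3 mature B cell genes were lower in both comparisons with IL15tg spleen. Of 6 T cell genes only Cd28, a costimulatory receptor, was called, higher in both comparisons, of 3 monocyte genes 1 in marrow against IL15tg spleen (Lyz2), and of 3 stem and mast cell genes Kit fell in both comparisons and Mcpt8 rose in marrow against IL15tg spleen. No marker was listed at 0.

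Other genes of mitosis gave a sparser picture. In a list of 111 further mitosis genes, 108 had a probe set and 104 were tested. Of these, 23 were called higher and 2 lower in NKDxIL15tg spleen, beside 7.65% and 4.87% of all genes. None was called in marrow against NKDxIL15tg spleen, beside 0.0232% of all genes called higher and 0.0464% lower. There 25 were higher and 1 lower at an unadjusted p under 0.05 in limma, beside 802 and 602 of 12925 genes in all. In marrow against IL15tg spleen 47 were called higher and 3 lower, beside 11.5% and 8.7% of all genes. Median log2 changes of the list were 0.16, 0.24 and 0.49 in these comparisons. The 23 calls in spleen became 9 and 12 without NKDxIL15tg spleen replicates 2 and 3, and 10, 8 and 14 without IL15tg spleen replicates 1, 2 and 3. The largest called changes in spleen were those of Cks1b, a cyclin-dependent kinase subunit, Cep55, a midbody protein, and Fbxo5, an inhibitor of the anaphase promoting complex. Cks1b measured 1929, 1670.0 and 1677 in NKDxIL15tg marrow, 1267, 1749 and 1693 in NKDxIL15tg spleen and 491, 372 and 489 in IL15tg spleen (1.80 ± 0.16, adjusted p = 0.000212), with marrow and NKDxIL15tg spleen overlapping. Cep55 measured 455, 420.1 and 447 in NKDxIL15tg marrow, 169, 439 and 406 in NKDxIL15tg spleen and 103, 76.5 and 117 in IL15tg spleen (1.68 ± 0.33, adjusted p = 0.0115). Fbxo5 measured 1157, 1575 and 1092 in NKDxIL15tg marrow, 687, 909.6 and 1133 in NKDxIL15tg spleen and 323, 281 and 326 in IL15tg spleen (1.53 ± 0.20, adjusted p = 0.00169). In both, every NKDxIL15tg spleen array exceeded every IL15tg array, and the 3 genes also led in marrow against IL15tg spleen, at 1.97 for Cks1b, 2.18 for Cep55 and 2.02 for Fbxo5. Pds5a, a cohesin regulator, measured 157, 151 and 163 in NKDxIL15tg marrow, 177, 133 and 203 in NKDxIL15tg spleen and 291, 243 and 240.0 in IL15tg spleen. Mad1l1, the checkpoint partner of Mad2, measured 38.8, 40.7 and 34.7 in NKDxIL15tg marrow, 45.4, 50.9 and 52.7 in NKDxIL15tg spleen and 72.0, 65.8 and 71.8 in IL15tg spleen. Both fell in spleen (log2 changes -0.61 and -0.49) and in marrow against IL15tg spleen (-0.71 and -0.88), with the IL15tg arrays above all others. Mad1l1 lay under the intensity filter in every marrow array and near it in NKDxIL15tg spleen. It entered the test through the IL15tg arrays, so its falls are tied to the filter. Lin52, a subunit of the DREAM complex, measured 85.1, 93.0 and 87.3 in NKDxIL15tg marrow, 92.8, 74.4 and 99.3 in NKDxIL15tg spleen and 118, 116 and 118 in IL15tg spleen and fell in marrow against IL15tg spleen (-0.41), where the groups did not overlap. Foxm1 and Mybl2, transcription factors of late cell cycle genes, did not pass in spleen (log2 changes -0.02 and 0.02).

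The promoters of these genes are shown because cell cycle genes that peak in G2 and M are known to share a pair of short elements: the CCAAT box bound by NF-Y and the cell cycle genes homology region (CHR), bound by the DREAM and MuvB complexes. Promoter sequences, 250 bases before to 50 after the annotated start, were taken from RefSeq on build GRCm38.p6 and were held for 38 of the 46 members, as 40 promoters. The NF-Y box was searched for as CCAAT, which reads ATTGG where it lies on the opposite strand. The CHR was searched for as the hexamer TTTGAA, which reads TTCAAA on the opposite strand, and also as the rarer variant TTCGAA, which is its own complement. A match of one motif can share at most 1 end base with a match of the other. The 100 bases before the start are given 5' to 3' on the gene's strand for 6 called members of several roles, with those letters in capitals. The genes are Cdk1 (chr10:69352913-69353012, minus strand), Cdc20 (chr4:118437344-118437443, minus), Ube2c (chr2:164769829-164769928, plus), Top2a (chr11:99024190-99024289, minus), Kif11 (chr19:37376282-37376381, plus) and Nusap1 (chr2:119618198-119618297, plus).
Cdk1: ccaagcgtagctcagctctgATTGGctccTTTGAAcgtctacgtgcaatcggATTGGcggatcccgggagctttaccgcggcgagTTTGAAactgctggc
Cdc20: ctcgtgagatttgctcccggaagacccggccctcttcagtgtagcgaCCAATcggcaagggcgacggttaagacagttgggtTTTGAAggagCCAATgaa
Ube2c: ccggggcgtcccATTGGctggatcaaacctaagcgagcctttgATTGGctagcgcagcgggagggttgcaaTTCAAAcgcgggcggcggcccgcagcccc
Top2a: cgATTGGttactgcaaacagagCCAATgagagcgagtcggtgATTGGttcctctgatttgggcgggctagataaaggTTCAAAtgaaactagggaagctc
Kif11: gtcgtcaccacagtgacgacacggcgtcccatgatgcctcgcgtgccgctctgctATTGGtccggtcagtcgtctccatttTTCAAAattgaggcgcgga
Nusap1: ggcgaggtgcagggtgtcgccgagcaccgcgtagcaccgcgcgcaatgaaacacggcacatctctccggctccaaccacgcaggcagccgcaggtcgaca

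In these 100 bases Cdk1 held 2 CCAAT boxes and 2 CHR hexamers, Cdc20 and Ube2c 2 boxes and 1 hexamer, Top2a 3 boxes and 1 hexamer, Kif11 1 of each, and Nusap1 neither. Within 250 bases before the start, 75% of the 40 member promoters held CCAAT, against 33.8% of all 32851 promoters in the table and 35.4% of those of protein-coding genes. In the same window 42.5% held a CHR hexamer, against 17.1% of all and 15.9% of protein-coding promoters, and 37.5% held both, against 6.02% and 5.84%. At least 2 CCAAT boxes were found in 47.5% of member promoters, against 10.1% of all. The hexamers lay near the start: from 50 bases before to 50 after it, a window chosen after the first search, 75% of member promoters held one, against 5.31% of all. These shares describe letters, not bound sites. The 26 tested members with both motifs in the 300 bases included 17 called in spleen, with a median log2 change of 0.94, and the 11 with a promoter but without both included 7 called, with a median of 1.14.

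**Figure D5:**
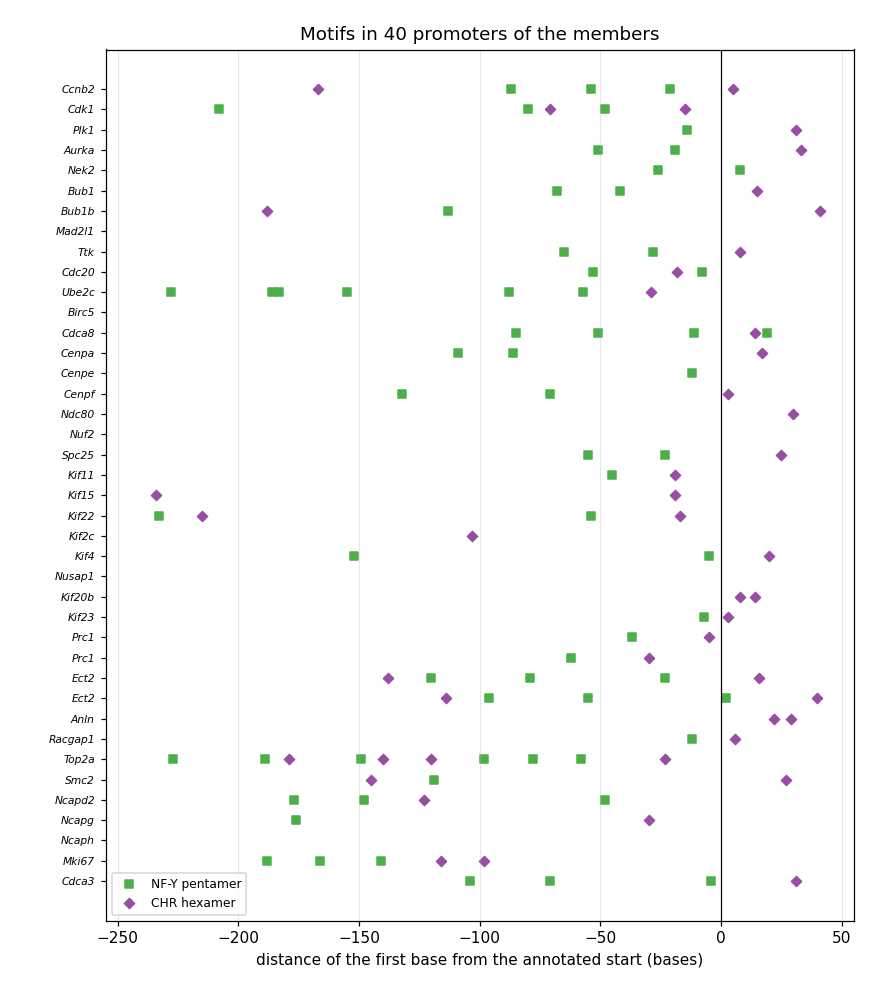
Positions of the CCAAT box (green, NF-Y pentamer) and the CHR hexamer (purple) on either strand in the 40 promoters of 38 members, as distance of the first base from the annotated start, in bases. The hexamers gather within 50 bases of the start and the boxes mostly upstream of it, while a few genes such as Nusap1 have neither in the window.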

How the data were processed

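RNA of 9 sorted NK cell samples, 150 ng each, was amplified in 2 cycles and hybridised to Affymetrix 3' arrays, per the labels' protocols. The deposited value table holds 1 linear intensity per probe set and array as the authors made it; no source used here says how it was summarised and scaled. Its 64 control probe sets were left out. Intensities under a floor of 16 (4.36% of values) were set to 16 and log2 values taken. Probe sets with a mean log2 intensity at or above the 40th percentile (5.58) were tested, 27022 of 45101. Genes were named from the platform annotation, where 34958 probe sets had 1 symbol, 932 several and 9211 none, and a gene was represented by its brightest probe set. Group means of all 9 arrays were fitted with limma 3.58.1 in R 4.3.3, 2-sided, with Benjamini-Hochberg adjustment over the tested probe sets of each comparison; the code was tested on simulated data. With 3 arrays a group, the number of arrays limits the precision, and an exact permutation test of 3 against 3 cannot give a p below 0.1.

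The members and gene lists were chosen with earlier results of these data known. Per-array values are given for the 3 most changed called members of each role, members whose probe sets disagree, and members without a call in any comparison, and for the 3 most changed called genes of the list of further mitosis genes in each direction. Replicate numbers come from the labels. Deviations of same-numbered arrays from their group means correlated at 0.163, 0.156 and 0.123 between NKDxIL15tg spleen and IL15tg spleen, at 0.379, 0.258 and 0.228 between NKDxIL15tg marrow and NKDxIL15tg spleen, and at 0.170, -0.02 and 0.242 between NKDxIL15tg marrow and IL15tg spleen. Differently numbered arrays reached 0.155, 0.141 and 0.115 in the first of these and 0.267 in the third, while in the second all were below 0. Only in the second were the same-numbered values thus clearly the higher ones. Deviations from a group's own mean sum to 0, so same-numbered values above 0 pull the differently numbered ones down. The values below 0 are therefore no separate sign of pairing. The main fit was unpaired, and a fit with replicate number as a block was an alternative. The other alternatives were quantile normalization, scaling to the 75th percentile, a floor of 64, no filter, the mean of a gene's probe sets, array weights, only the groups compared, an intensity trend, and each array left out.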

Additional observations from a re-analysis of the deposited data

How the results depend on the processing

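Over 18 alternative settings, 11 of 30 calls in NKDxIL15tg spleen against IL15tg spleen and 34 of 39 in NKDxIL15tg marrow against IL15tg spleen held in every setting, and no setting called a member in marrow against NKDxIL15tg spleen. Counts of members called higher ranged, with 1 array left out, from 14 to 35 in spleen and from 35 to 40 in marrow against IL15tg spleen, and medians from 0.94 to 1.34, from 1.51 to 1.84 and, between marrow and NKDxIL15tg spleen, from 0.42 to 0.78. Members called higher in spleen (30) numbered 25 with no filter, 23 with a floor of 64 and 23 with a gene's probe sets averaged. With probe sets averaged, the median was 0.72 in spleen and 1.32 in marrow against IL15tg spleen. Cenpa then turned to -0.051 in spleen, since its dimmer probe set fell. With replicate number as a block (pairing), 29 members were called in spleen, 37 in marrow against IL15tg spleen and 0 between marrow and NKDxIL15tg spleen; apart from Smc2 in both comparisons and Cenpe in marrow, it changed no call of a member.

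Further mitosis genes called higher in spleen (23) numbered 14 with a floor of 64, 15 with no filter and 8 to 32 with 1 array left out. Those called lower in spleen (2) numbered 0 after scaling to the 75th percentile, 1 with no filter, 5 with array weights and 0 to 5 with 1 array left out. Those called lower in marrow against IL15tg spleen (3) numbered 5 with quantile normalization, 5 with array weights and 1 to 4 with 1 array left out; the cause was not tested. In windows chosen after seeing the data, 82.5% of member promoters held a CHR hexamer in the whole 300 bases and 75% from 50 bases before to 50 after the start, where 50% held CCAAT, against 19.2%, 5.31% and 13.6% of all promoters.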

Other observations

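Of 23 tested genes of DNA replication and of the G1 and S phases, 12 were called higher and none lower in NKDxIL15tg spleen against IL15tg spleen, beside 7.65% and 4.87% of all genes (1 had a lower value at an unadjusted p under 0.05 in limma), with a median log2 change of 0.50. In NKDxIL15tg marrow against IL15tg spleen 17 were higher and 1 lower, beside 11.5% and 8.7% of all genes, with a median of 0.86. Cdc6, which loads the replicative helicase, had the largest change in spleen (1.28 ± 0.21, limma adjusted p = 0.00515), at 103, 169 and 146 in NKDxIL15tg spleen against 59.5, 44.0 and 67.1 in IL15tg spleen. Rrm2, a subunit of ribonucleotide reductase, rose by 1.18 (adjusted p = 0.0094). Cdc45, a helicase subunit, was the one that fell in marrow, with 179, 240.3 and 191 in NKDxIL15tg marrow against 445, 332 and 436 in IL15tg spleen (-0.99 ± 0.17, adjusted p = 0.00436). None was called in NKDxIL15tg marrow against NKDxIL15tg spleen, beside 0.0232% of all genes called higher there and 0.0464% lower, with 5 higher and 1 lower at an unadjusted p under 0.05 and a median of 0.30. This list was also chosen with earlier results of these data known.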
